A study of Mus musculus with 12 samples.

Results

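The Stefin A genes of the mouse form a cluster of closely related copies on chromosome 16, and their RNA was followed here in dorsal skin of control mice and of mice with an atopic dermatitis-like disease, with or without mesenchymal stem cells (MSCs). Genes were taken by name: any symbol beginning with Stfa and a digit, or BC100530, BC117090, Csta1, Csta2 or Csta3. This rule found 6 of the 36400 genes of the deposited table, namely Csta1, Stfa2l1, Csta3, Stfa1, Stfa2 and Stfa3. The symbols BC100530 and BC117090 are the older names of rows listed as Cstdc5 and Cstdc6, recognised by their Ensembl identifiers in GENCODE M21, and those rows are described with Cstdc4 as neighbours of the 6 genes. Csta2 was not analysed here.

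The skin came from 12 female BALB/c mice, 3 in each of 4 groups, which were 6 weeks old at purchase and whose skin was taken on day 30. Control mice received only the vehicle, acetone and olive oil. DNCB mice were sensitised with 1% 2,4-dinitrochlorobenzene (DNCB), a hapten that provokes contact dermatitis, and challenged repeatedly at 0.5%. The scMSC and scivMSC mice received the same DNCB and 4 injections of human umbilical cord MSCs, 100 µL under the dorsal skin in scMSC mice, or 50 µL there plus 50 µL into the tail vein in scivMSC mice. The MSCs were human cells given to mice of a normal inbred strain, every MSC-treated mouse had also received DNCB, and all 12 mice were shaved before sensitisation.

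Stefins are small cystatins that stay inside the cell and bind tightly but reversibly to papain-like cysteine proteases such as the cathepsins. Humans have a single gene for the A type, CSTA, whose protein is abundant in the upper epidermis and is built into the cornified envelope of keratinocytes. In the mouse the gene has been copied several times, and members of the family are known from stratified epithelia and from neutrophils. The protein grips the active site of its target through a hairpin loop with the conserved pattern glutamine, any residue, valine, any residue, glycine.

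The 6 genes lay between bases 36119946 and 36455392 of chromosome 16 in GRCm38 coordinates. Csta1 (ENSMUSG00000034362), Stfa2 (ENSMUSG00000022902) and Stfa3 (ENSMUSG00000054905) were annotated on the minus strand, and Stfa2l1 (ENSMUSG00000059657), Csta3 (ENSMUSG00000094733) and Stfa1 (ENSMUSG00000071562) on the plus strand. In the GENCODE M21 transcripts each had 3 coding parts, and the middle coding exon was 102 bases long in every copy. It is shown for the 6 members and for Cstdc5, because it carries the loop and shows how alike the copies are. Capitals mark bases that differ from Stfa3.
Stfa3: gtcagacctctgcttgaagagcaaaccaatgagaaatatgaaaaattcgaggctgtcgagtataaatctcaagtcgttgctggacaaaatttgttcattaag
Csta3: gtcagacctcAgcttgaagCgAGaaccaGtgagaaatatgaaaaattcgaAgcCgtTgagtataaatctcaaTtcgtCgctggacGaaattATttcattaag
Stfa1: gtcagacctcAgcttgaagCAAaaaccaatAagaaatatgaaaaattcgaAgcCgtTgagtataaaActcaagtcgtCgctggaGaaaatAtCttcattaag
Cstdc5: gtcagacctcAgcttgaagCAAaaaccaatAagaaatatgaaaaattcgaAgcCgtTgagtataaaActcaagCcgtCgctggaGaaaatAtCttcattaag
Csta1: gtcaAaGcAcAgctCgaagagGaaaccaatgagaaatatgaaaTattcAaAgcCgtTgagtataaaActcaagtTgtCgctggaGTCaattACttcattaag
Stfa2: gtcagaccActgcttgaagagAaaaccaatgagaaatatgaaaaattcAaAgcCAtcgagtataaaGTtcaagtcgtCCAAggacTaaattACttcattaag
Stfa2l1: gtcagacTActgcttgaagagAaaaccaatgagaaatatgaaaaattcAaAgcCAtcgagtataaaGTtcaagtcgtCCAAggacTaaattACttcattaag
These exons lie at chr16:36452151-36452252 for Stfa3, chr16:36213518-36213619 for Csta3, chr16:36280466-36280567 for Stfa1, chr16:36364212-36364313 for Cstdc5, chr16:36124974-36125075 for Csta1, chr16:36405130-36405231 for Stfa2 and chr16:36159946-36160047 for Stfa2l1, each printed 5′ to 3′ on its own gene's strand. The other members differed from Stfa3 at between 13 and 19 of the 102 bases. The codon pattern of the loop occurred at bases 70 to 84 of the exon in all 6 members. Within those bases Stfa1 differed from Stfa3 at 1 base, Csta1 and Csta3 at 2 and Stfa2 and Stfa2l1 at 4.

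Over the 225 coding bases of the last 2 coding exons, the 15 pairs of members shared between 77.8% and 97.8% of bases, with a median of 81.3%. Stfa2 and Stfa2l1 were the closest pair at 97.8%. Stfa1 was closer to neighbours listed under other symbols, at 98.7% with Cstdc5 and 96.9% with Cstdc6, than to any other member. How far reads can separate the copies was judged from stretches of 75 bases of their annotated transcripts. No such stretch of Csta1, Csta3 or Stfa3 occurred in another gene of the cluster, against 7.8% of those of Stfa2l1, 5.8% of Stfa2, 9.2% of Stfa1 and 25.6% of Cstdc5. No stretch of 150 bases was shared by any of the 9 genes. The reference is of another strain than BALB/c, and differences of the cluster between strains were not examined, so the summed counts are given beside each member.

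**Figure D1:**
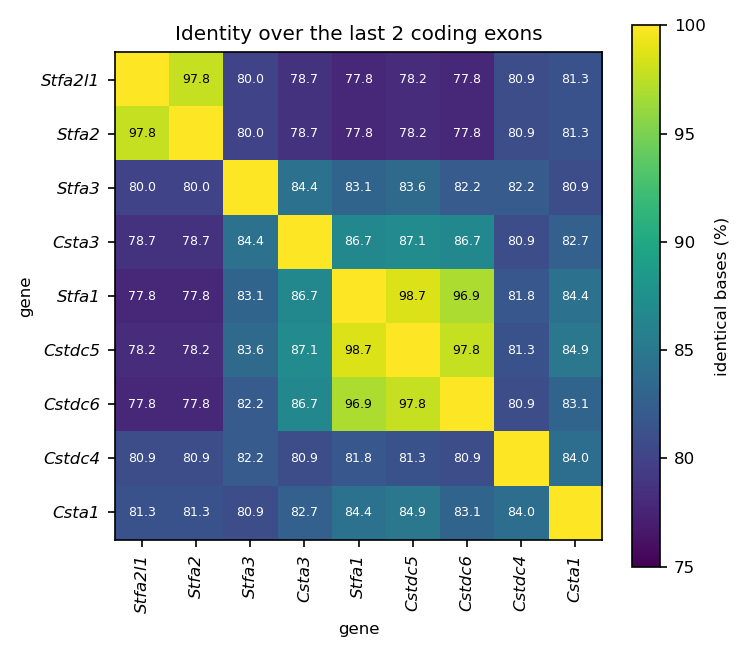
Percentage of identical bases (colour scale and printed value) between each pair of 9 cluster genes over the 225 coding bases of the last 2 coding exons. Stfa2 and Stfa2l1 form a pair at 97.8%, and Stfa1, Cstdc5 and Cstdc6 form a group at 96.9% to 98.7%.

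The bases just before the start of transcription are shown for Stfa3, the most abundant member, and Stfa2l1, the member with the largest fold change between DNCB and control skin. RefSeq and the deposited table gave the same start for both. The 120 bases upstream of the start (RefSeq, GRCm38.p6) were as follows, at chr16:36455393-36455512 on the minus strand for Stfa3 and chr16:36156691-36156810 on the plus strand for Stfa2l1, with the letters TTTAAA in capitals.
Stfa3: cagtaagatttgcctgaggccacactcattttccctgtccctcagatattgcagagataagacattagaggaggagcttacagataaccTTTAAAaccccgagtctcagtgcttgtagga
Stfa2l1: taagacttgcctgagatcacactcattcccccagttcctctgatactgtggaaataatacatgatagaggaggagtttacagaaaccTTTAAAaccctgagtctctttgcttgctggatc
Such a run, in the style of a TATA box, began 31 bases upstream of the start in Stfa3 and 33 bases upstream in Stfa2l1. These letters were chosen after the sequences had been read. On either strand, they occurred in the 300-base promoter windows of all 6 members and in 13.2% of the 32851 mouse promoters of the same length. Their position was not shared by all members. Within the 120 bases upstream they began 30 bases upstream in Stfa1, 29 in Stfa2 and 77 in Csta3, and were absent in Csta1. For Csta1, Stfa1 and Stfa2 the deposited table gave another start than RefSeq. Of the other letters searched, the AP-1 letters TGANTCA occurred in 1 window (Stfa3) and in 7.8% of all promoters, the ETS letters GAGGAAG in 2 (Csta1 and Stfa1) and in 13.6%, and the C/EBP letters TTNNGNAA in 4 and in 40.7%. The STAT letters TTCNNNGAA occurred in none of the 6 windows and in 8.3% of all promoters, and the STAT6 form, with 1 more base between TTC and GAA, in 1 (Stfa2) and in 7.0%. No binding was measured in these samples.

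Levels are given in FPKM, fragments scaled for transcript length and library size, which allows genes to be compared per length. The libraries held between 63877153 and 75134001 estimated counts, and the 6 members took between 0.00955% and 0.156% of them. Replicates of a group correlated at between 0.967 and 0.988 over all tested genes on the log scale. The 8 basal keratinocyte genes summed to between 1781 and 10507 FPKM in each library, and control skin held more skeletal muscle RNA, with 13542 to 19536 FPKM summed over 6 muscle genes against 3690.2 to 9571 in the other 9 libraries. The third scivMSC library held the least fibroblast RNA, at 164 FPKM summed over 8 genes against 905 and 1123 in the first and the second. No library was left out of the main fits.

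Of the 6 members, Stfa3 was by far the most abundant in every group, while Cstdc5, counted here as a neighbour, had a higher mean in each. Its level was 75.7, 303 and 342 FPKM in control skin, 1699.6, 2476 and 2105 FPKM in DNCB skin, 199, 136 and 163 FPKM in scMSC skin and 380.5, 1397 and 279.9 FPKM in scivMSC skin. Each DNCB library was above every library of the other groups, and the second scivMSC library stood far above the other two of its group. Stfa3 supplied between 72.0% and 90.3% of the summed FPKM of the 6 members in each library.

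Csta1, the copy at the other end of the cluster, varied least between the groups. It measured 18.5, 35.3 and 43.8 FPKM in control skin, 54.3, 88.0 and 68.6 in DNCB skin, 27.1, 21.3 and 13.7 in scMSC skin and 32.4, 49.3 and 23.3 in scivMSC skin. The DNCB libraries were again the highest, but the lowest of them lay close to the highest scivMSC library. Csta1 supplied 9.95% to 17.55% of the summed FPKM in control skin and 2.655% to 3.01% in DNCB skin.

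Stfa2l1 and Csta3 were low outside DNCB skin. Stfa2l1 was listed at 0.806, 0 and 0.322 FPKM in control skin, 99.0, 92.5 and 86.0 in DNCB skin, 0, 1.23 and 0.226 in scMSC skin and 0, 5.44 and 2.89 in scivMSC skin. Its values outside DNCB skin rest on 0 to 187 estimated counts, so the low levels are imprecise. A sequenced fragment was assumed to give about 4 estimated counts, a value that was not estimated here. Csta3 measured 6.62, 3.22 and 4.62 FPKM in control skin, 65.0, 136 and 127 in DNCB skin, 1.87, 2.24 and 0.323 in scMSC skin and 0.767, 41.8 and 2.46 in scivMSC skin. For both genes the lowest DNCB library exceeded the highest library of any other group, and for Csta3 the second scivMSC library stood apart again.

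Stfa1 and Stfa2 had the same order of groups. Stfa1 measured 0.514, 2.17 and 1.92 FPKM in control skin, 30.5, 40.7 and 26.3 in DNCB skin, 2.39, 1.37 and 0.501 in scMSC skin and 4.50, 21.6 and 2.26 in scivMSC skin. Stfa2 measured 3.10, 11.5 and 9.70 FPKM in control skin, 97.4, 92.2 and 69.3 in DNCB skin, 4.12, 2.33 and 2.69 in scMSC skin and 4.11, 39.1 and 9.90 in scivMSC skin. The second scivMSC library held more of either gene than any control or scMSC library, while still below the DNCB libraries.

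By mean FPKM the order of the members in DNCB skin was Stfa3 at 2094 ± 388 (SD, n = 3), Csta3 at 109 ± 38.7, Stfa2l1 at 92.5 ± 6.52, Stfa2 at 86.3 ± 14.97, Csta1 at 70.3 ± 16.9 and Stfa1 at 32.5 ± 7.41. Csta3, Stfa2l1, Stfa2 and Csta1 overlapped with one another along that order, whereas Stfa3 at the top and Stfa1 at the bottom did not overlap with their neighbours. In control skin the order was Stfa3 at 240.0 ± 144 (SD, n = 3), Csta1 at 32.5 ± 12.9, Stfa2 at 8.09 ± 4.42, Csta3 at 4.82 ± 1.71, Stfa1 at 1.53 ± 0.892 and Stfa2l1 at 0.376 ± 0.406. There, Stfa2 overlapped with Csta3 and Stfa1 with Stfa2l1, and no other neighbours in the order did. Csta1 thus stood next to Stfa3 in control skin and next to last in DNCB skin, and Stfa2l1 moved from the last place to the middle.

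By mean FPKM the treated groups kept the order of control skin, although single libraries did not all do so. In the first scivMSC library Stfa1 (4.50 FPKM) lay above Stfa2 (4.11) and Csta3 (0.767). In the third, Stfa2l1 (2.89 FPKM) lay above Csta3 (2.46) and Stfa1 (2.26). The means in scMSC skin were 166 ± 31.8 FPKM for Stfa3 (SD, n = 3), 20.7 ± 6.72 for Csta1, 3.05 ± 0.950 for Stfa2, 1.48 ± 1.02 for Csta3, 1.42 ± 0.947 for Stfa1 and 0.484 ± 0.652 for Stfa2l1. In scivMSC skin they were 686 ± 618 FPKM for Stfa3 (SD, n = 3), 35.0 ± 13.2 for Csta1, 17.7 ± 18.8 for Stfa2, 15.01 ± 23.2 for Csta3, 9.47 ± 10.6 for Stfa1 and 2.78 ± 2.72 for Stfa2l1. In scMSC skin the ranges of Stfa3, Csta1 and Stfa2 each lay above that of the next member of the order, and those of Csta3, Stfa1 and Stfa2l1 overlapped. In scivMSC skin the range of Stfa3 lay above that of Csta1, and the other neighbours of the order overlapped.

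**Figure D2:**
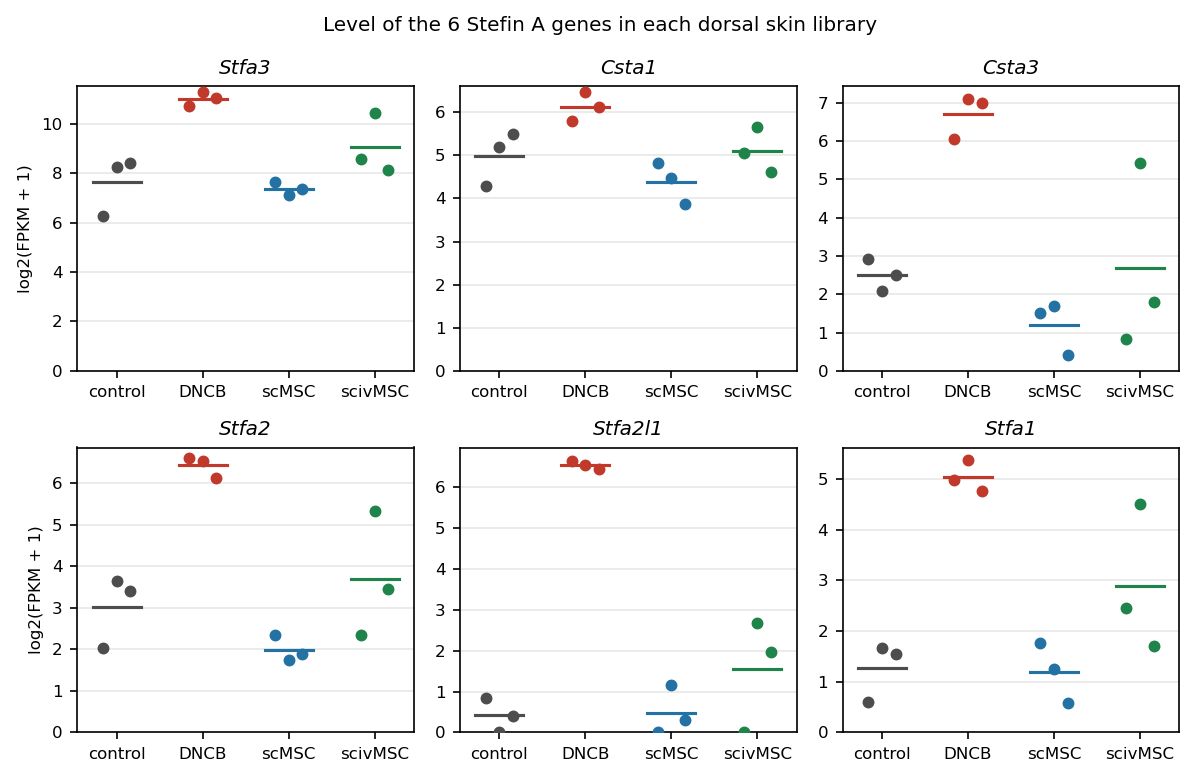
Level of each member as log2(FPKM + 1) in the 12 libraries, with a point per mouse and a line at the mean of the logged values of the 3 mice of a group. In all 6 panels the DNCB points are the highest, and in the scivMSC group 1 point, the second library, lies well above the others for Stfa3, Csta3, Stfa2 and Stfa1.

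The first comparison asked what DNCB did to the cluster. Of the 6 members, 5 rose in DNCB skin against control skin, where a call means an edgeR quasi-likelihood adjusted p under 0.05 with a fold change over 2. Of all 21890 genes tested, 6.59% were called higher in this comparison. The log2 fold change was 7.70 ± 1.68 for Stfa2l1 (SE, adjusted p = 0.00733), 4.31 ± 1.23 for Csta3 (adjusted p = 0.0253) and 4.21 ± 0.88 for Stfa1 (adjusted p = 0.00589). Stfa2 followed at 3.23 ± 0.73 (adjusted p = 0.00878) and Stfa3 at 2.95 ± 0.63 (adjusted p = 0.00689). Csta1 was not called, at 0.94 ± 0.35 (adjusted p = 0.0749). Its 95% interval, from the t distribution with the degrees of freedom of the fit, was 0.16 to 1.72, against 1.55 to 4.35 for Stfa3, and differences between members were not tested.

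The DNCB libraries did not overlap with the control libraries for any of the 6 members, which held for 24.4% of all tested genes in the higher direction. The median log2 fold change was 3.72 over the members and 0.02 over all tested genes. Csta3 was the least secure call, since its adjusted p rose above 0.05 on leaving out any control library or the second or the third DNCB library, to between 0.0561 and 0.0874, with a log2 fold change of 4.06 to 4.59. In these bulk samples a change in the number of cells of a type and a change in RNA per cell cannot be told apart.

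The summed counts of the 6 members were 6262, 17179 and 18969 in control skin, 73433, 117076 and 95972 in DNCB skin, 13360, 9621 and 8545 in scMSC skin and 20645, 62240 and 13689 in scivMSC skin. The groups fell in the same order as Stfa3, and the DNCB libraries did not overlap with any other group. Against control skin the sum was 5.40-fold higher in DNCB skin, a log2 fold change of 2.43 ± 0.52 (SE, adjusted p = 0.00663). A sum of counts weighs genes by length, and Csta1, with the longest transcripts, gave 3710 counts in the first control library against 2252 for Stfa3, although its FPKM there was lower. Per length, the summed level was 287 ± 160 FPKM in control skin (SD, n = 3), 2485 ± 440 in DNCB skin, 193 ± 37.0 in scMSC skin and 766 ± 685 in scivMSC skin.

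The second question was how far the cluster differed between DNCB skin and the skin of treated mice. All 6 members were higher in DNCB than in scMSC skin, in a comparison in which 3.84% of tested genes were called higher. The log2 fold changes were 7.48 ± 1.65 for Stfa2l1 (SE, adjusted p = 0.0141), 6.15 ± 1.35 for Csta3 (adjusted p = 0.0138), 4.80 ± 0.79 for Stfa2 (adjusted p = 0.00394), 4.48 ± 0.89 for Stfa1 (adjusted p = 0.00877), 3.64 ± 0.65 for Stfa3 (adjusted p = 0.00563) and 1.74 ± 0.36 for Csta1 (adjusted p = 0.0105). The sum was 9.12-fold higher, at 3.19 ± 0.54 on the log2 scale (adjusted p = 0.00436). No member overlapped between the groups, which held for 16.7% of tested genes. Without the third scMSC library the adjusted p of Stfa2l1 was 0.0540.

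Against scivMSC skin none of the 6 members was called by edgeR, and 2.33% of tested genes were called higher. All 6 had an unadjusted p under 0.05 and adjusted p between 0.0578 and 0.200, DESeq2 called 3, and limma called 3 or 4 depending on the pseudocount. Over all tested genes DESeq2 called 1883 in either direction. Each member was nevertheless higher in every DNCB library than in every scivMSC library, a pattern seen in 16.8% of tested genes. The log2 fold change was 5.04 ± 1.44 for Stfa2l1 (SE, adjusted p = 0.0578), 2.30 ± 0.70 for Stfa2 (adjusted p = 0.0720), 1.63 ± 0.60 for Stfa3 (adjusted p = 0.132) and between 1.01 and 2.89 for the rest. The sum differed 3.01-fold, at 1.59 ± 0.50 on the log2 scale with a 95% interval of 0.48 to 2.70 (adjusted p = 0.0819).

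The number of calls here depended on the second scivMSC library. Without it, 4 members were called higher in DNCB than in scivMSC skin, namely Csta3 at a log2 fold change of 6.01 (adjusted p = 0.00523), Stfa2 at 3.57 (adjusted p = 0.00833), Stfa1 at 3.24 (adjusted p = 0.0242) and Stfa3 at 2.64 (adjusted p = 0.0166), and the sum was called at 2.41 (adjusted p = 0.00954). The lone library is 1 mouse of 3, and nothing in its label sets it apart. It was singled out by its high values for these same genes, so leaving it out had to raise the difference. The calls without it show how far the count depends on 1 mouse and are not a separate test of the difference. On leaving out any 1 library, between 476 and 1442 of the 21890 tested genes were called in either direction for this comparison. The number in the fit without the second scivMSC library was not set beside these calls.

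**Figure D3:**
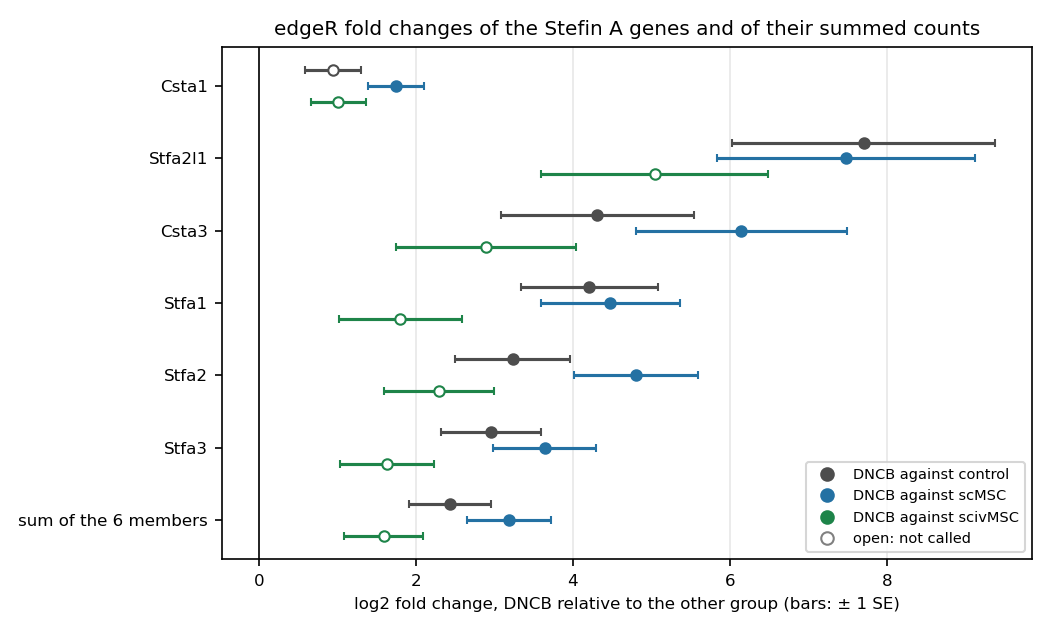
log2 fold change of each member and of their summed counts in DNCB skin relative to control (grey), scMSC (blue) and scivMSC (green) skin, with bars of 1 SE on either side and open symbols where no call was made. Csta1 lies nearest to 0 and Stfa2l1 farthest, and the scivMSC comparison is open throughout.

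The treated groups were also compared with control skin. For scMSC against control skin edgeR called none of the 6 members, and DESeq2 and limma called none either. An unadjusted edgeR p under 0.05 was found for 2 members, while edgeR called 9.32% of tested genes in either direction. The largest departure was that of Csta3, at -1.83 with a 95% interval of -4.39 to 0.73, and the sum stood at -0.76 with an interval of -1.85 to 0.34 (adjusted p = 0.329). For scivMSC against control skin edgeR and limma called none, DESeq2 called 1 (Stfa1), and 2 had an unadjusted edgeR p under 0.05. The share of all tested genes called by edgeR was 6.85%. Shares under DESeq2 or an unadjusted p were not set beside these counts. The sum was at 0.84 with an interval of -0.25 to 1.94 (adjusted p = 0.307), and at 0.02 without the second scivMSC library (adjusted p = 0.987). These intervals leave room for changes of more than 2-fold, so equal levels were not shown.

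Between the treated groups edgeR called none of the members, limma none and DESeq2 2 (Stfa1 and Stfa2), with 4 at an unadjusted p under 0.05. In this comparison edgeR called only 0.00457% of all tested genes, while DESeq2 called 115 genes. The members had adjusted p between 0.565 and 0.753, and the sum was at -1.60 ± 0.50 on the log2 scale for scMSC relative to scivMSC skin (SE, adjusted p = 0.574), or -0.78 without the second scivMSC library (adjusted p = 0.819).

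The neighbours Cstdc5, Cstdc6 and Cstdc4 are further Stefin A-like copies that stand between the members. Cstdc5 was more abundant than Stfa3, at 97.4, 327 and 384 FPKM in control skin, 2498, 3371 and 2629 in DNCB skin, 239, 161 and 191 in scMSC skin and 425, 1870.0 and 338 in scivMSC skin. Cstdc6 had a mean of 904 FPKM in DNCB skin, against 72.0 in control, 58.5 in scMSC and 295 in scivMSC skin, and Cstdc4 a mean of 24.3 FPKM in DNCB skin, against 0.198, 0.368 and 0.844 FPKM in the other groups in the same order. All were called higher in DNCB than in control skin, by 3.22 ± 0.65 (SE, adjusted p = 0.00522), 3.49 ± 0.70 (adjusted p = 0.00514) and 6.70 ± 1.43 (adjusted p = 0.00673) on the log2 scale. They were also called higher in DNCB than in scMSC skin, and Cstdc4 against scivMSC skin, at 4.84 ± 1.29 (adjusted p = 0.0444).

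With these neighbours included, the sum over 9 genes was 7.77-fold higher in DNCB than in control skin (adjusted p = 0.00543), 12.3-fold higher than in scMSC skin (adjusted p = 0.00483) and 3.20-fold apart from scivMSC skin (adjusted p = 0.106). The rest of the 23 listed genes between Csta1 and Stfa3 are Gm22885, Gm25024, Gm6815, Gm10913, Gm24801, Gm23306, Gm24437, Gm25465, Gm15845, Gm24218, Gm22349, Gm22263, Gm49652 and Gm25903, with means over all libraries from 0.000653 to 1.66 FPKM. Of these, Gm10913 and Gm15845 were called higher in DNCB than in control skin, at 6.39 ± 1.75 (SE, adjusted p = 0.0218) and 2.74 ± 0.54 (adjusted p = 0.00439). Gm15845 overlaps Cstdc5 on the opposite strand, and whether counting used strand is not given in the sources used here, so their reads may not be separable.

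**Figure D4:**
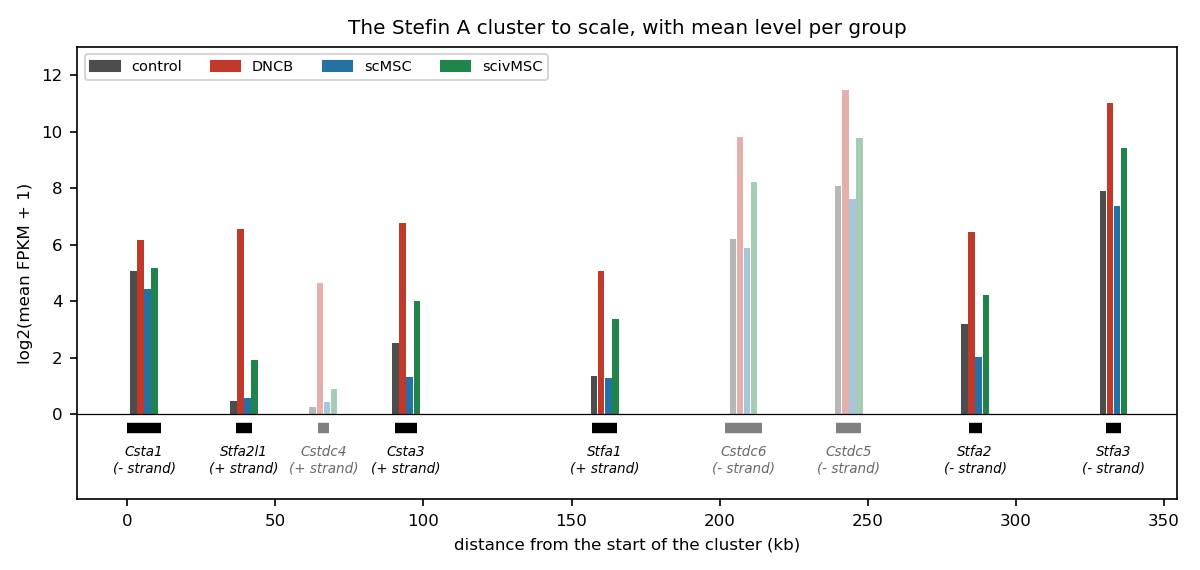
Position of the 6 members (black boxes) and of Cstdc4, Cstdc5 and Cstdc6 (grey boxes, paler bars) in kb from the start of Csta1, with the mean level per group as log2(mean FPKM + 1) above each gene. Stfa3 and Cstdc5 are the tallest, and at each of the 9 genes the DNCB bar is the highest.

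Stefins inhibit papain-like cysteine proteases, so a list of 12 lysosomal proteases, cathepsins and legumain, was set beside them. Which of the 12 bind a stefin was not examined. Of these, 2 were called higher in DNCB than in control skin and 1 lower, with a median log2 fold change of 0.61. Over all tested genes 7.57% were called lower in this comparison. Ctsc, the dipeptidyl peptidase cathepsin C, rose by 1.95 ± 0.27 (SE, adjusted p = 0.00103), and Lgmn, the asparaginyl endopeptidase legumain, by 1.26 ± 0.37 (adjusted p = 0.0311). The member called lower, Ctsw, is below the abundance limit for description. Ctss, cathepsin S of antigen-presenting cells, was higher in DNCB than in scMSC skin at 2.24 ± 0.65 (adjusted p = 0.0456) and was not called against control skin at 1.55 ± 0.64 (adjusted p = 0.101).

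Of the 7 cystatins tested outside the stefins, 2 were called higher in DNCB than in control skin. Fetub, the secreted protease inhibitor fetuin B, rose by 1.93 ± 0.23 (SE, adjusted p = 0.000685). Cst6, cystatin E/M of the epidermis, had a mean of 45.0 FPKM in DNCB skin, against 64.7 in control skin, 131 in scMSC skin and 109 in scivMSC skin, and was lower in DNCB than in scMSC skin, at -1.59 ± 0.46 (adjusted p = 0.0435). Cstb, the gene of stefin B, which most cell types make, lies outside the naming rule and was added as the closest relative. It measured 93.2 to 146 FPKM in control and 228 to 283 FPKM in DNCB skin, a log2 fold change of 0.94 ± 0.30 (adjusted p = 0.0445) that fell short of the fold required for a call.

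Marker lists of the cells that could carry Stefin A RNA moved in the same comparisons. All 22 neutrophil markers were called higher in DNCB than in control skin, 21 against scMSC and 19 against scivMSC skin. Over all tested genes 6.59%, 3.84% and 2.33% were called higher in these comparisons. The lists were chosen with earlier results of these data known. Of 7 neutrophil granule genes tested, 3 were called higher against control skin (1 lower), 3 against scMSC and 1 against scivMSC skin. The summed level of the 22 markers was 3059 to 4248 FPKM in DNCB, 158 to 267 in control, 36.5 to 104 in scMSC and 63.7 to 254 FPKM in scivMSC skin. S100a8 and S100a9, subunits of calprotectin, led the list, with S100a9 at a mean of 1966 FPKM in DNCB and 94.8 in control skin. S100a8 had a mean of 916 FPKM in DNCB and 51.6 in control skin. These 2 genes made up most of the sum in DNCB skin, and the cells that made their RNA were not examined. Ly6g, a defining neutrophil gene named here after its values were seen, was listed at 0 in all 9 libraries outside the DNCB group, as was Mrgpra2b in the control and scivMSC libraries.

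The 4 stress keratins of activated epidermis, Krt6a, Krt6b, Krt16 and Krt17, were all called higher in DNCB than in control skin, and Krt6a, Krt6b and Krt16 also against scMSC skin. Against scivMSC skin edgeR gave them adjusted p between 0.0562 (Krt6a) and 0.283 (Krt17), with log2 fold changes of 0.56 to 2.60. Krt6b had the largest of these changes against control skin, at 5.48 ± 0.91 on the log2 scale (SE, adjusted p = 0.00201). Their summed level was 7079 to 8807 FPKM in DNCB, 484 to 553 in control and 683 to 1453 in scMSC skin. In scivMSC skin it was 1208 and 1152 FPKM in the first and the third libraries and 4581 FPKM in the second.

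The second scivMSC library thus held high levels of Stfa3, Stfa1, Stfa2, Csta3 and the stress keratins, and it also had the highest neutrophil marker sum of the 6 libraries of treated mice and the highest Stfa2l1 level outside DNCB skin. That neutrophil sum, 254 FPKM, was above 2 of the 3 control libraries, and against at least 3059 FPKM in DNCB skin it was low. Stfa2l1 reached 5.44 FPKM there, against at least 86.0 FPKM in DNCB skin. This is a description of a single mouse. The part of neutrophils or keratinocytes in the changes of the cluster was not tested.

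**Figure D5:**
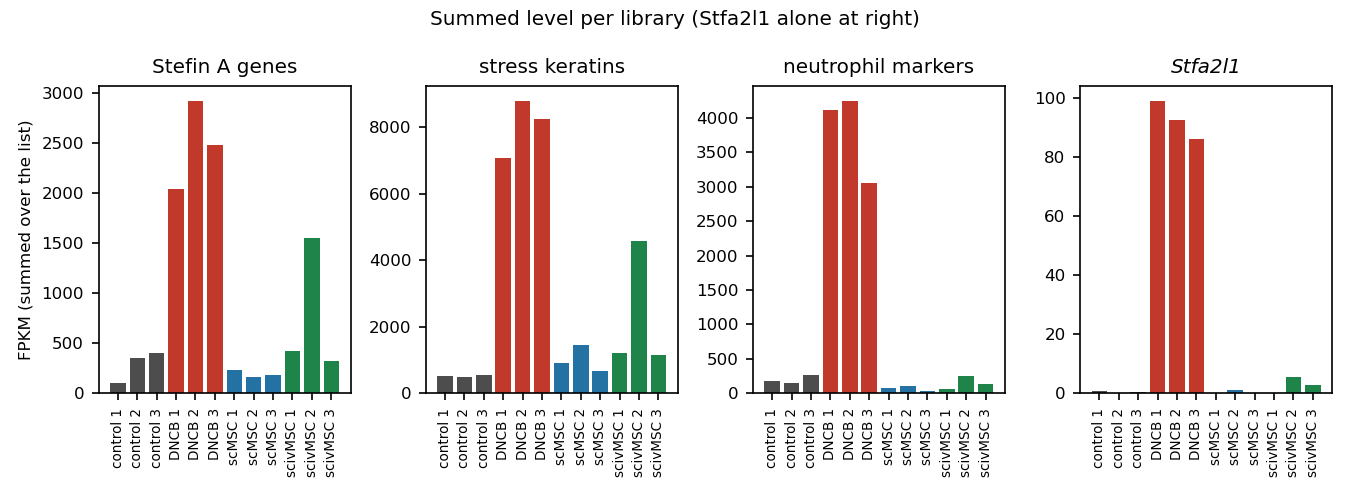
Summed FPKM of the 6 Stefin A genes, of 4 stress keratins and of 22 neutrophil markers, and FPKM of Stfa2l1 alone, in each of the 12 libraries, with a separate linear axis per panel starting at 0. The second scivMSC bar is the highest of its group in all 4 panels, at 1554 FPKM for the Stefin A genes, 4581 FPKM for stress keratins, 254 FPKM for neutrophil markers and 5.44 FPKM for Stfa2l1, and stays below every DNCB bar, which start at 3059 FPKM for neutrophil markers and 86.0 FPKM for Stfa2l1.

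Cornified envelope genes, the structural context of cystatin A in the epidermis, were split, with 7 of 22 tested called higher and 5 lower in DNCB than in control skin. Lor, the major envelope protein loricrin, fell by 2.71 ± 0.36 on the log2 scale (SE, adjusted p = 0.000948) and Lce1a1, a late envelope protein, fell by 2.95 ± 0.39 (adjusted p = 0.000895). Sprr1a, a small proline-rich cross-linked protein, rose by 2.42 ± 0.39 (adjusted p = 0.00174). Of 8 basal keratinocyte genes, 2 were called higher and 1 lower, and of 9 suprabasal genes 3 were called lower. Krt14 of the basal layer rose by 2.65 ± 0.39 (adjusted p = 0.00127), and Krt10 of the suprabasal layer measured 0.25 on the log2 scale (adjusted p = 0.684).

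The remaining lists were counted in the same comparison, in which 6.59% of tested genes were called higher and 7.57% lower. Called higher were 3 of 7 neutrophil granule genes (1 lower), 1 of 14 macrophage and monocyte genes, 4 of 9 mast cell genes, 1 of 4 eosinophil genes (1 lower), 2 of 10 T cell genes and 5 of 8 fibroblast genes. Called lower were 5 of 7 Langerhans cell genes, 3 of 6 adipocyte genes and 4 of 6 skeletal muscle genes. Of 11 hair shaft and inner root sheath genes, 7 were called lower in DNCB than in scMSC skin, against 4.66% of all tested genes. The summed hair gene level was 6773 to 19072 FPKM in scMSC and 2568 to 6228 FPKM in scivMSC skin, against 9.17 to 354 in control and 308 to 955 in DNCB skin, and its part in the scMSC comparison of the cluster was not tested.

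The genes with a profile most like the summed cluster were ranked by the root mean square difference between centred log2 profiles over the 12 libraries, among 14380 genes of at least 1 FPKM on average. The nearest were Klk13 at 0.302, a kallikrein-related serine protease of stratified epithelia, 2610528A11Rik at 0.347, Cstdc5 at 0.369, Lce3f at 0.373, Teddm3 at 0.373, Sprr2a3 at 0.377, Gsdmc at 0.387 and Lce3e at 0.389. Lce3e and Lce3f encode late cornified envelope proteins, Sprr2a3 a small proline-rich protein and Gsdmc a gasdermin. Klk13 measured 38.5, 37.3 and 40.4 FPKM in DNCB skin and 1.84, 7.35 and 5.31 in control skin, with 2.81, 3.62 and 3.66 in scMSC skin and 7.07, 23.4 and 5.94 in scivMSC skin, with the second scivMSC library high as for Stfa3. No neutrophil marker was among these 8 genes. The profiles were centred but not scaled, so a gene that moved much more than the sum ranked far away whatever its pattern. Between DNCB and control skin the neutrophil markers differed by 5.05 on the log2 scale at the median, and the summed counts by 2.43. Their absence among the nearest genes is therefore uninformative, and a part of neutrophils was not tested by this ranking.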

How the data were processed

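RNA of dorsal skin from 12 mice was sequenced. The authors deposited whole-number estimated counts per gene, not normalised between libraries, and FPKM, scaled by the authors for transcript length and library size. The submitters' processing notes name Bowtie 0.12.2, HISAT2 2.0, StringTie 1.3.0 and mm8, whereas the deposited coordinates match GRCm38. Strand use in counting is not given in the sources used here.

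The members, gene lists and tests were chosen with earlier results of these data known. All 12 libraries were fitted in 1 edgeR (4.0.16) quasi-likelihood model with TMM scaling (factors 0.887 to 1.06) over the 21890 genes that averaged 0.1 FPKM or more, and p-values were adjusted over all of them (Benjamini-Hochberg). A gene was called at an adjusted p under 0.05 and a log2 fold change beyond 1. Each edgeR SE is approximate, being the absolute log2 fold change divided by the square root of the quasi-likelihood F statistic. Intervals of 95% used these SEs and the t distribution with the fit's degrees of freedom (10.8). In a second fit 1 row with their sum replaced the 6 members. Comparisons that share the DNCB libraries are not independent. DESeq2 (1.42.0) and limma (3.58.1) were alternatives, and each tool was run on simulated counts. The simulation used the same dispersion for every gene and placed changes only in well-counted genes. It therefore checked the code and not the error rates in these data. Named were all members, all genes between them, called cathepsins, stefins and cystatins of at least 1 FPKM, up to 4 most abundant genes of other lists and the 8 nearest profiles. Exons came from GENCODE M21 and promoters from RefSeq (GRCm38.p6). No protein sequences were used here.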

Additional observations from a re-analysis of the deposited data

How the results depend on the processing

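For DNCB against control and against scMSC skin, the summed counts kept their direction and their call under every alternative and on leaving out any library, with log2 fold changes of 2.05 to 3.32 and of 3.04 to 3.69, and between 4 and 6, and 5 and 6, members were called. Csta1 was called against control skin with library size scaling (adjusted p = 0.0456) and limma (0.0360 and 0.0351), while with DESeq2 (0.0386) its log2 fold change of 0.92 fell short of a call.

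For DNCB against scivMSC skin the members called numbered 1 with a filter at a mean of 1 FPKM, 3 with DESeq2, 3 and 4 with limma on log2(FPKM + 0.1) and log2(FPKM + 1), 1 with counts divided by 4, 6 with the study's criteria of an unadjusted p under 0.5 and a fold over 2, and 0 to 4 on leaving out 1 library. There the sum was called with DESeq2 at 1.61 (adjusted p = 0.00936), and ranged from 1.26 to 2.41 on leaving out 1 library. The study's criteria gave 2 members for scMSC against control, 4 for scivMSC against control and 5 for scMSC against scivMSC skin, and DESeq2 gave 1 and 2 for the latter pair of comparisons. Leaving out 1 library gave 0 or 1 for scivMSC against control skin (Stfa1, without the third scivMSC library, adjusted p = 0.0354). For DNCB against scivMSC skin DESeq2 called 1883 of all tested genes, and the 10 settings with an all-gene count gave 845 to 1883. All genes passing the study's criteria were not counted, so the member counts under those criteria have no background share. The cause of the shifts in member counts was not tested.

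Uncalled single values changed sign in comparisons without DNCB. For scMSC against control skin, Stfa2l1 turned from 0.22 to -0.42 with the replicate block and ranged from -1.94 to 1.41 on leaving out 1 library, and Stfa1 ranged from -0.80 to 0.13 (-0.27 with all). For scivMSC against control skin, Csta1 turned from -0.07 to 0.11 with library size, 0.13 and 0.12 with limma, and ranged from -0.38 to 0.12 on leaving out 1 library. Csta3 turned from 1.42 to -0.059 with limma on log2(FPKM + 0.1) and ranged from -1.70 to 1.98 on leaving out 1 library, and Stfa2 from -0.34 to 1.41 (0.94 with all), both lowest without the second scivMSC library. No value against DNCB skin changed sign.

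Of 18 same-numbered pairs of libraries from different groups, 3 deviated together at a correlation over 0.1 (all 18 from -0.351 to 0.262). Only 3 of 12 libraries correlated best with their own number, so the numbers were not taken to pair mice. With the replicate block the sum was at 2.47, 3.12 and 1.73 for DNCB against control, scMSC and scivMSC skin (adjusted p = 0.00756, 0.00860 and 0.0673), and no member count changed by over 1.5 times.

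Over all genes the number called moved by more than 1.5 times in some settings. For DNCB against scivMSC skin it was 1883 with DESeq2 and 476 to 654 on leaving out a DNCB library or the first or the third scivMSC library. It was 1231 and 1222 for DNCB against scMSC skin without the second DNCB or second scMSC library, 1300.0 for scMSC against control skin with limma on log2(FPKM + 1), 795 to 964 for scivMSC against control skin, and 115 with DESeq2 and 2 to 5 otherwise for scMSC against scivMSC skin. With 3 mice a group, the SE of a member's log2 fold change against control skin in the DNCB comparison ranged from 0.35 for Csta1 to 1.68 for Stfa2l1.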
